A study of Mus musculus with 12 samples.

Results

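C2C12 cells that had received plasmid DNA were compared with C2C12 cells that had received the negative control, and the changes that both plasmid groups shared were kept. C2C12 is a mouse myoblast line that fuses into myotubes when serum is withdrawn. The comparison used 9 of the 12 arrays of the series, all of RNA taken 72 h after transfection: 3 labelled pcDNA3.1, 3 labelled pcDNA3.1-MEG3 and 3 labelled negative control. The other 3 arrays carried RNA of cells transfected with siRNA. The plasmid pcDNA3.1 is a bacterial vector for expression in mammalian cells, and pcDNA3.1-MEG3 is the same vector named for the long non-coding RNA MEG3, which the study set out to raise and to knock down. All groups were the same cell line in serum-containing medium. The sample titles write pat1 for pcDNA3.1, a name left unexplained. The labels do not say what the negative control contained, whether pcDNA3.1 was empty, or how the nucleic acid was delivered, so the comparison is of the labelled groups as they stand. A gene was called when the mean of the 2 plasmid group means differed from the negative control at an adjusted p under 0.05 in limma's moderated test, with the same direction in both plasmid groups.

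Cells detect DNA or RNA in the wrong compartment through sensor proteins such as cGAS and the RIG-I-like helicases. These act through the adaptors STING and MAVS on the kinase TBK1 and the factors IRF3 and IRF7, which switch on type I interferon genes. Interferon secreted by a cell acts on the receptor chains IFNAR1 and IFNAR2, and transcription factors downstream of the receptor then bind the interferon-stimulated response element in the promoters of antiviral genes. Many of the sensors and factors are themselves products of such genes.

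The 12 arrays lay on 3 slides, and each group of the comparison lay on a slide apart from the other: the negative control on 1 slide, scanned in another calendar month, and both plasmid groups together on a second. Slide, scan month and plasmid therefore cannot be told apart in any difference from the negative control below. The siRNA arrays lay on a slide of their own, scanned in the same month as the plasmid groups. In differences from siRNA, slide and treatment cannot be told apart. Between 69.2% and 75.9% of the probes were well above background on the 9 arrays, and the signal at the 75th percentile lay between 1220 and 2266, with the highest value on negative control replicate 2. Replicates 1 and 3 of each plasmid group occupied the same slide position in different scans. A position of 1 slide holds 1 array, so with both groups on 1 slide these replicates are 2 scans of 1 hybridisation. They differed by 0.247 and 0.317 times the noise between spots of an array, and negative control replicates 1 and 3 differed by 0.727 times it. Each such pair was counted as 1 sample, so that every group held 2 samples. Negative control replicate 2 differed from replicates 1 and 3 by 3.6 and 3.27 times the spot noise, while replicates 1 and 2 of the plasmid groups differed by 0.82 and 0.803 times it and were nevertheless kept as 2 samples. Nothing in the labels tells whether replicates came from separate cultures. The p-values therefore reflect how far these samples scatter, and that scatter may be technical. Differences within an averaged pair of arrays do not enter it. Meg3 itself did not follow the plasmid labels and is no part of the shared response: its brightest probe read -2.47, -2.38 and -2.48 on the arrays labelled pcDNA3.1 but -7.93, -6.58 and -7.59 on those labelled pcDNA3.1-MEG3, where it was not well above background. Directions below are drawn from both plasmid groups together and do not turn on which of them carried MEG3.

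Values are the log2 of the processed spot signal minus the array's 75th percentile, and a difference between groups is a log2 difference on that scale. Of 24543 genes tested, 5351 were called, which is 21.8%. Higher in the plasmid groups were 3256 genes (13.3%) and lower were 2095 (8.54%), and another 9 genes passed with opposite directions in the 2 groups. All 6 plasmid arrays lay above all 3 negative control arrays for 7635 genes (31.1%) and below them for 3558 (14.5%), and of these 3172 (12.9%) and 2039 (8.31%) were also called. Here and below, the 6 plasmid arrays are not 6 separate readings, since replicates 1 and 3 of a group are taken as scans of 1 hybridisation. A change of at least 1 in both plasmid groups was seen for 1166 higher genes (4.75%) and 970 lower genes (3.95%), of at least 3 for 74 and 95, and of at least 4 for 20 and 38. At 3 and above, decreases outnumbered rises. Between pcDNA3.1-MEG3 and pcDNA3.1, 2 genes passed (0.00815%), but 2404 did once replicate 2 of the negative control was removed, 2407 with its other replicates removed, and 3004 with 12 arrays as 12 samples. The median over all genes was 0.185 above 0, and the choice of zero point sets the balance of directions. With each array centred on its median instead, the median gene fell by 0.234 and 18.2% of the calls were higher, against 60.8% here, so small differences of either sign should be read against that shift. The number of calls also rested on single samples: it was 9049 once replicate 2 of the negative control was removed, 8089 with replicates 1 and 3 of that group removed, 2823 and 2149 without replicate 2 or replicates 1 and 3 of pcDNA3.1, and 1705 and 1845 likewise for pcDNA3.1-MEG3. When each plasmid group was counted as 1 sample, as its replicates' closeness would allow, 134 genes passed.

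The sharpest rise was in the interferon response, led by the oligoadenylate synthetases, which make the second messenger that activates RNase L when they bind double-stranded RNA. Of 10 measured genes of that list 9 were called higher and 0 lower, against 13.3% higher and 8.54% lower among all genes, and their median was 3.80 against 0.185. Oas2 read -6.70, -7.53 and -8.28 on the 3 negative control arrays, where it was not well above background, 2.52, 2.46 and 2.50 on the pcDNA3.1 arrays, and 2.60, 2.50 and 2.58 on the pcDNA3.1-MEG3 arrays. All 6 plasmid arrays lay far above all 3 negative control arrays, and the 2 plasmid groups overlapped each other. Oas2 was at least 589-fold higher in the plasmid groups (log2 difference 10.02, SE 0.14, limma adjusted p = 1.46e-05). Its negative control replicates 1 and 3, at -6.70 and -8.28, entered the fit as their mean. The SE and p therefore do not hold the spread between those dim arrays. A bound of this kind sets the bright group's mean against the dimmest signal still well above background on each dim array. Oas1a read -5.88, -5.98 and -6.03 in the negative control, with 1 of 3 arrays well above background, 2.84, 3.20 and 2.83 with pcDNA3.1, and 3.40, 3.42 and 3.41 with pcDNA3.1-MEG3. It was at least 581-fold higher (9.18, SE 0.14, limma adjusted p = 1.46e-05). Oas1f rose 70.6-fold (6.14), and Oasl2, a synthetase-like protein, rose 22.8-fold (4.51). Oas1c (4.26), Oas3 (3.34), Oasl1 (2.69), Oas1h (1.05) and Oas1e (1.02) were called as well. Oas3 was at least 10.1-fold higher, with 2 of 3 negative control arrays well above background. Oas1d, the member that was not called, had a difference of -1.02. The Oas1 genes are related copies whose probes could share signal, so their separate values are uncertain. Oas1e and Oas1h lost their call without negative control replicate 2, and 7 to 8 genes were called higher when 1 plasmid sample was left out.

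The interferon-induced antiviral effectors moved with them: 42 of 58 measured genes were called higher (72.4%) and 2 lower (3.4%), beside 13.3% and 8.54% of all genes. Their median was 1.47. Usp18, which removes ISG15 from proteins and dampens the interferon receptor, read -5.09, -5.60 and -5.15 in the negative control, 1.68, 1.74 and 1.68 with pcDNA3.1, and 1.89, 1.89 and 1.85 with pcDNA3.1-MEG3. It rose 142.4-fold (7.15, SE 0.17, limma adjusted p = 5.75e-05), and no array of either plasmid group came near the negative control. Rsad2 encodes viperin, which makes a chain-terminating nucleotide. It read -7.01, -7.16 and -6.75 in the negative control, below the background threshold on all 3 arrays, between -0.30 and -0.29 with pcDNA3.1, and between -0.03 and -0.01 with pcDNA3.1-MEG3, so that it was at least 92.4-fold higher (limma adjusted p = 2.8e-05). Cmpk2, a nucleotide kinase and its neighbour on the chromosome, was at least 8.06-fold higher. Ifi44 rose 81.2-fold (6.34, SE 0.18), from -4.01, -4.49 and -3.94 to between 2.07 and 2.15 on all 6 plasmid arrays. Ifit1, which binds RNA with a foreign 5′ end, read -2.09, -1.77 and -2.14 in the negative control, 3.22, 3.04 and 3.20 with pcDNA3.1, and 3.31, 3.15 and 3.30 with pcDNA3.1-MEG3, and rose 34.8-fold (5.12, SE 0.15, limma adjusted p = 0.000105). Ifit3 rose 26.5-fold (4.73) and its near copy Ifit3b by 5.25, with the reserve that their probes may share signal. Isg15, the ubiquitin-like modifier that USP18 removes, read -0.97, -1.32 and -0.92 in the negative control, between 3.16 and 3.20 with pcDNA3.1, and between 3.56 and 3.65 with pcDNA3.1-MEG3. It rose 22.9-fold (4.52, SE 0.15). The 2 members called lower were Slfn9 (-2.09) and Apobec3 (-0.53), the latter a deaminase of single-stranded DNA for which another probe read 0.52. Apobec3 lost its call when any 1 plasmid sample was left out, and 33 to 37 effectors were then called higher, against 12 with each plasmid group as 1 sample.

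**Figure D1:**
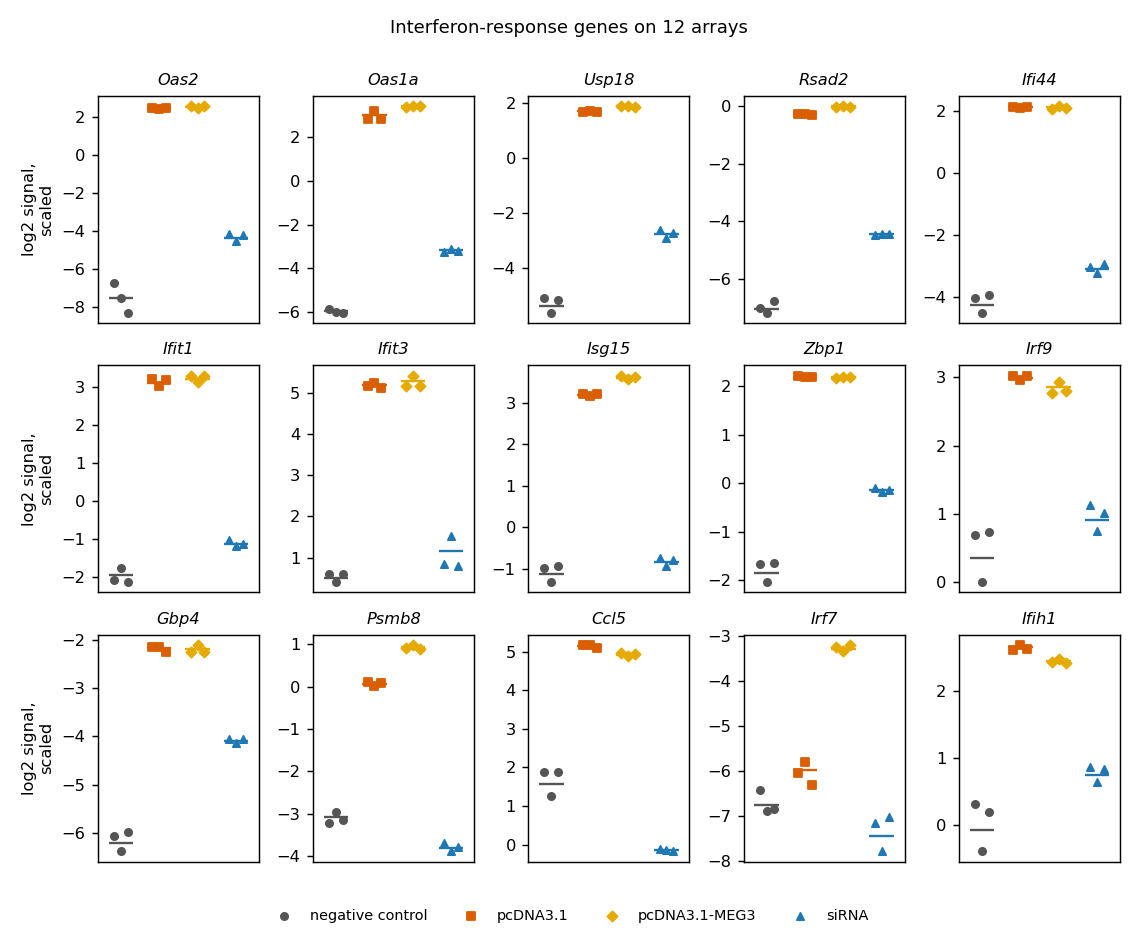
Scaled log2 signal of 15 interferon-response genes on 12 arrays, 1 point per array with a line at each group's mean, and a vertical scale of its own for each gene. For Oas2, Usp18 and Rsad2 all 6 plasmid arrays lie above the negative control and siRNA arrays, and for Irf7 the pcDNA3.1 arrays lie near the negative control while the pcDNA3.1-MEG3 arrays lie above both.

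The plot of interferon-response genes by array shows that in most panels the 2 plasmid groups lay close together. Of the 243 genes that may be named, none differed between the plasmid groups at an adjusted p under 0.05, the lowest being 0.0841 in limma for Irf7. The spread in that test is pooled over all groups: 23 of the 243 passed once replicate 2 of the negative control was removed, 23 with its other replicates removed, and 33 with 12 arrays as 12 samples. The siRNA arrays of Oas2 (-4.13, -4.51 and -4.19) and Usp18 (-2.59, -2.88 and -2.70) lay between the negative control and the plasmid groups. Both contrasts share the plasmid arrays, so their values are given side by side. Oas2 differed by 10.02 from the negative control and by 6.85 from siRNA, Usp18 by 7.15 and 4.56, Ifit1 by 5.12 and 4.31, and Isg15 by 4.52 and 4.23. Against siRNA, where 8.16% of all genes were higher in the plasmid groups and 10.6% lower, the synthetase list had 8 higher and 0 lower with a median of 3.12, and the effector list 35 higher and 2 lower with a median of 0.999.

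Promoter letters are shown for effectors that rose and that hold the core of the interferon-stimulated response element, since that element is the site at which the pathway acts. The core, GAAA followed by any 2 bases and GAAA, was searched on both strands, in 250 bases before and 50 after each gene's start in RefSeq's promoters of build GRCm38.p6, and overlapping matches were counted. Each line gives the 160 bases before the start, 5′ to 3′ on the gene's own strand, with matches to the core or its reverse complement in capitals. Oas1a has 2 matches at chr5:120907526-120907685 on the minus strand, beginning 20 and 14 bases before the start. Isg15 has 3 overlapping matches at chr4:156200819-156200978 on the minus strand. Ifit1 has 2 at chr19:34640729-34640888 and Ifit3 has 2 at chr19:34583369-34583528, both on the plus strand. Rsad2 has 1 at chr12:26456453-26456612 on the minus strand.
Oas1a: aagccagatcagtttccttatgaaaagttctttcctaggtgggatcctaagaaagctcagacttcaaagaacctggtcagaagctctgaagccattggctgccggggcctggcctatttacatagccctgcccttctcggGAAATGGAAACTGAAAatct
Isg15: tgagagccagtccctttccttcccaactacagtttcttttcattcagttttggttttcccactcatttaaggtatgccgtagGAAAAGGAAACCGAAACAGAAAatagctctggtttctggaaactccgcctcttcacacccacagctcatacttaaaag
Ifit1: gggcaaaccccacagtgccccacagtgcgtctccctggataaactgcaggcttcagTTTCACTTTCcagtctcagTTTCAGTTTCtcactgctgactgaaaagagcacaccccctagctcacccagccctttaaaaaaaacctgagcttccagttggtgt
Ifit3: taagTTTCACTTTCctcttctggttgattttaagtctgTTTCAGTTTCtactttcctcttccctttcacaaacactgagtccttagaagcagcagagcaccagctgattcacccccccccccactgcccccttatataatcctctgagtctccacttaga
Rsad2: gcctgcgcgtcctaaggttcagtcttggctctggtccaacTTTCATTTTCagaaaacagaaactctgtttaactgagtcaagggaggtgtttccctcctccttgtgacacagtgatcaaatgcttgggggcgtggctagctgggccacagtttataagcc
In Oas1a the matches lie next to the start, in Rsad2 and Ifit3 further off. Of 107 genes called higher in 7 interferon-related lists, 82 had a promoter in the table and 35 of these (42.7%) held the core. Among genes of those lists that were not called, 11 of 54 (20.4%) held it, among all genes called higher 112 of 1754 (6.39%), among all called lower 33 of 938 (3.52%), and among all 27025 promoters 1079 (3.99%). Within the 82, those with the core had a median difference of 2.33 (range 0.54 to 9.18) and those without it 1.55 (range 0.54 to 6.34). A match describes the letters only, and no match says only that these letters are not in the window. Oas2, Usp18, Zbp1 and Gbp4 had no promoter in the table.

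Several of these genes sit in clusters of related genes, so the genes around them were counted too. Of 8 measured Oas genes of 1 cluster, 7 were called higher with a median of 3.80, while of the 9 measured genes between them and up to 5 on each side 2 were, Rph3a (1.5) and Ddx54 (0.47), with a median of 0.30. In the Ifit cluster 4 of 6 members were called higher (median 2.82) against 1 of 10 neighbours, with 2 neighbours lower and a median of 0.04. The 5 measured Gbp genes of one chromosome were all called higher (median 2.12), as were the 5 of another (median 3.05), against 2 of 9 and 1 of 5 neighbours (medians 0.42 and 0.60). In the Ifi200 cluster 8 of 10 members were called higher (median 1.78), and of 4 neighbours 0 were called higher and 1 lower, though their median was 1.19 against 0.185 over all genes. Over all genes 13.3% were called higher and 8.54% lower. Whether members and neighbours differed was not tested.

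Part of the genes of nucleic acid sensing rose. Of 37 measured sensors and adaptors 19 were called higher (51.4%) and 1 lower (2.7%), beside 13.3% and 8.54% of all genes. Their median was 0.54 against 0.185. Zbp1, a sensor of left-handed nucleic acid, read -1.66, -2.03 and -1.65 in the negative control, between 2.18 and 2.22 with pcDNA3.1, and between 2.18 and 2.19 with pcDNA3.1-MEG3, a rise of 16.4-fold (4.03, SE 0.14, limma adjusted p = 0.000122). The 6 plasmid arrays were nearly equal and far above the negative control. Of the RIG-I-like helicases, which bind viral RNA, Dhx58 rose by 3.02 and Ifih1, which encodes MDA5, by 2.64. Dhx58 read -1.56, -1.89 and -1.55 in the negative control and between 1.25 and 1.33 on the 6 plasmid arrays. Genes of the PYHIN family of DNA-binding proteins rose as well, with Ifi207 (3.24), Ifi209 (2.43), Mndal (1.89), Ifi211 (1.68) and Ifi204 (1.46), while Ifi213 was at least 3.8-fold higher with 1 of 3 negative control arrays well above background. Eif2ak2, the kinase PKR that halts translation on double-stranded RNA, rose by 1.76 (SE 0.11, limma adjusted p = 0.000737), from -1.07, -0.95 and -1.13 to between 0.66 and 0.85. Adar, which edits adenosine in double-stranded RNA, rose by 1.18 and Trex1, an exonuclease for cytosolic DNA, by 1.11.

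The signalling core of DNA sensing changed less. Cgas, the cytosolic DNA sensor, read -0.66, -1.17 and -0.62 in the negative control, 0.08, -0.01 and 0.12 with pcDNA3.1, and -0.24, -0.19 and -0.29 with pcDNA3.1-MEG3. It was called (0.81, SE 0.17, limma adjusted p = 0.0257), but other probes of the gene read -2.04 and 0.60, and the mean of its probes gave -0.21. Tbk1 was called at 0.91 and Tlr3, the endosomal receptor for double-stranded RNA, at 0.63. Sting1 had a difference of 0.58 (limma adjusted p = 0.063) and did not pass, nor did Mavs (-0.30), Tlr9, the endosomal receptor for unmethylated CpG DNA (0.12), or Aim2, the DNA sensor of the inflammasome (0.07). The member called lower was Dnase2a, the lysosomal nuclease that digests engulfed DNA. It read 2.78, 2.00 and 2.45 in the negative control, 0.36, -0.01 and 0.33 with pcDNA3.1, and -0.03, -0.33 and -0.01 with pcDNA3.1-MEG3 (difference -2.31, SE 0.48, limma adjusted p = 0.0237). Its siRNA arrays, at 0.60, -1.10 and 0.59, lay with the plasmid groups and not with the negative control, and the difference from siRNA was 0.25 (limma adjusted p = 0.724). With any 1 plasmid sample left out, 10 to 11 of the 37 genes were called higher, and Cgas, Tbk1, Tlr3, Trex1 and Dnase2a lost their call. Without negative control replicate 2, 23 were called higher and 7 lower, and with each plasmid group as 1 sample 2 were called higher.

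**Figure D2:**
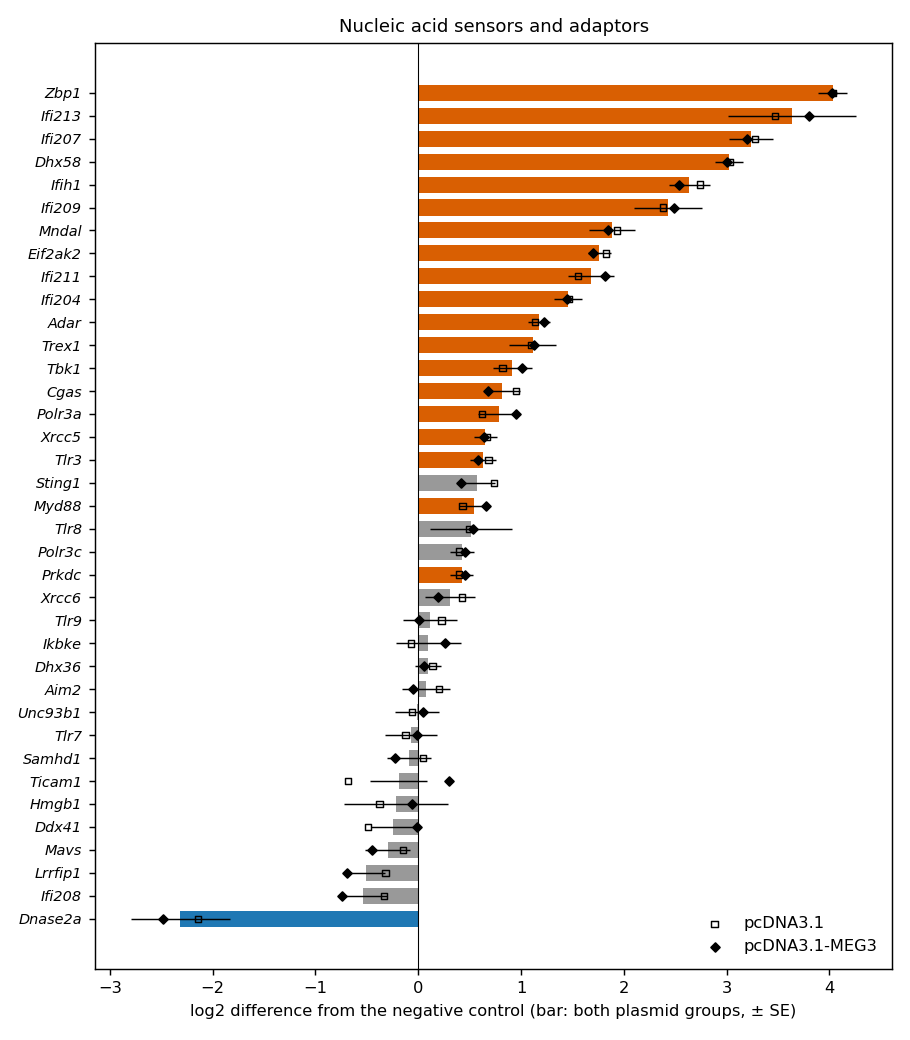
Log2 difference from the negative control for each measured gene of the list of nucleic acid sensors and adaptors, with bars for the mean of both plasmid groups with its SE and markers for each plasmid group. Zbp1 at 4.03 and Dhx58 at 3.02 lie at the upper end and Dnase2a at -2.31 at the lower end, while Sting1, Mavs, Tlr9 and Aim2 lie between -0.30 and 0.58.

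The plot of sensor genes has the RIG-I-like helicases Dhx58 and Ifih1 and most of the PYHIN genes in its upper part. The interferon genes themselves gave no call of a rise. Of 19 measured interferons, receptors and receptor kinases 0 were called higher and 2 lower (10.5%), beside 13.3% and 8.54% of all genes. Ifna13 (1.42), the type III interferon Ifnl3 (1.29), Ifna12 (1.26) and Ifna7 (1.20) had the largest differences and did not pass, and Ifnb1 has a probe on the array that did not pass the filter on dim probes and was not tested. Of the receptor chains, Ifnar1 (0.25) and Ifnar2 (-0.06) did not pass, while Ifngr1, the ligand-binding chain for interferon gamma, fell by 1.02 (SE 0.17, limma adjusted p = 0.0128). Ifngr1 read 2.84, 2.88 and 2.80 in the negative control against 1.69 to 2.15 on the 6 plasmid arrays, and its siRNA arrays, at 2.61, 2.91 and 2.60, stayed with the negative control. The other called gene was Ifna5 (-0.94). Ifngr1 lost its call without replicates 1 and 3 of pcDNA3.1, and Ifna5 without either sample of pcDNA3.1-MEG3, while without negative control replicates 1 and 3 the list had 3 higher and 4 lower.

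Of 13 measured IRF and STAT factors 5 were called higher (38.5%, beside 13.3% of all genes) and 0 lower. Stat2 rose by 2.07, from 2.01, 1.55 and 1.82 to between 3.74 and 3.83. Irf9 rose 5.93-fold (2.57, SE 0.22, limma adjusted p = 0.002), from 0.69, 0.00 and 0.73 to between 2.77 and 3.02. In both genes the plasmid arrays stood apart from the negative control. Irf7, which amplifies type I interferon, was unequal in the 2 plasmid groups. It read -6.43, -6.88 and -6.84 in the negative control, -6.04, -5.80 and -6.30 with pcDNA3.1, and -3.25, -3.35 and -3.21 with pcDNA3.1-MEG3, a difference of 0.77 for the former group and 3.47 for the latter. Irf7 was not well above background on any negative control array and was at least 1.56-fold higher with pcDNA3.1 and at least 10.1-fold higher with pcDNA3.1-MEG3, and the difference between the plasmid groups did not pass (limma adjusted p = 0.0841). Stat3 was called at 0.54, with another probe at -0.17, whereas Irf3 (0.09) and Irf1 (0.08) were not. Stat6 had a difference of 1.88 and did not pass. Stat3 lost its call when any 1 plasmid sample was left out.

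Almost every interferon-induced GTPase rose. These proteins coat and disrupt the vacuoles in which intracellular pathogens live. Of 19 measured, 18 were called higher (94.7%) and 0 lower, beside 13.3% and 8.54% of all genes, with a median of 2.24. The exception, Irgq, had a difference of -0.16 and is named after its value was seen. Gbp3 read -0.91, -1.45 and -0.87 in the negative control and between 2.97 and 3.09 on the 6 plasmid arrays, a rise of 18.1-fold (4.18, SE 0.18, limma adjusted p = 0.000217). Gbp4 rose by 4.03, Irgm2 by 3.71 and Igtp by 3.46. Igtp read -1.35, -1.47 and -1.30 in the negative control, between 2.01 and 2.12 on the plasmid arrays, and 0.25, 0.15 and 0.21 on the siRNA arrays, which lay between. The guanylate-binding proteins are a family of close copies and their separate values are uncertain. Against siRNA the list had 15 higher and 0 lower, with a median of 1.36.

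Antigen presentation by class I molecules of the major histocompatibility complex rose in part. Of 27 measured genes 13 were called higher (48.1%) and 1 lower (3.7%), beside 13.3% and 8.54% of all genes, with a median of 0.69. The immunoproteasome subunits led, which cut proteins into peptides suited to class I molecules: Psmb8 read -3.22, -2.96 and -3.16 in the negative control, 0.12, 0.01 and 0.08 with pcDNA3.1, and 0.92, 0.98 and 0.89 with pcDNA3.1-MEG3, a rise of 11.9-fold (3.57, SE 0.13, limma adjusted p = 0.000125). Psmb9 rose by 3.25. The class I heavy chain gene H2-K1 rose by 1.56 and H2-Q7 by 1.21, while H2-T24 was called lower at -1.17 although another probe of it read 1.8. B2m, the light chain, and H2-D1, another heavy chain, are named after their values were seen. B2m was already high on the negative control arrays (7.04, 6.59 and 7.21) and had a difference of 0.06, and H2-D1 had a difference of -0.67, and neither passed. The H2 genes are close copies, so their probes may share signal. Against siRNA 14 of the 27 were higher and 0 lower, with a median of 0.94. Leaving out 1 plasmid sample gave 5 to 6 genes higher against the negative control, with H2-Q7 no longer among them.

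Of 37 measured chemokines and cytokines 10 were called higher (27.0%) and 3 lower (8.1%), beside 13.3% and 8.54% of all genes, with a median of 0.22. The lower share was near that of all genes. Ccl5, a chemokine that draws T cells and monocytes, read 1.87, 1.25 and 1.89 in the negative control, 5.17, 5.18 and 5.11 with pcDNA3.1, and 4.96, 4.89 and 4.95 with pcDNA3.1-MEG3. It rose 11.1-fold (3.48, SE 0.19, limma adjusted p = 0.000416), and its siRNA arrays lay below the negative control, at -0.12, -0.13 and -0.18. Ccl8 rose by 1.94, and Il1a was at least 2.52-fold higher with 1 of 3 negative control arrays well above background. Il33, an alarmin of the interleukin-1 family, read 5.09, 4.49 and 5.08 in the negative control, between 3.27 and 3.33 with pcDNA3.1, and between 2.97 and 3.02 with pcDNA3.1-MEG3. It fell by 1.64 (SE 0.19, limma adjusted p = 0.00442), and Ccl27a (-1.29) and Ccl9 (-0.83) were also lower. Genes of the NF-kB pathway were split, with 3 higher and 3 lower of 19 measured (15.8% each). The adaptor Traf1 rose by 2.19 and Nfkb1, a subunit, fell by 1.76, while another probe of Nfkb1 read -0.02. Of 16 feedback inhibitors of interferon signalling 5 were called higher (31.2%, beside 13.3% of all genes) and 0 lower, but their median of 0.07 lay below the 0.185 of all genes. Among the called genes Usp18, Isg15, Ifi35 (1.87) and Lgals3bp (1.76) belong to the effector list too and were already counted there. With 1 plasmid sample left out, 3 to 8 of the chemokines and cytokines were called higher and 1 of the NF-kB genes, and Ccl27a and Ccl9 lost their call each time.

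**Figure D3:**
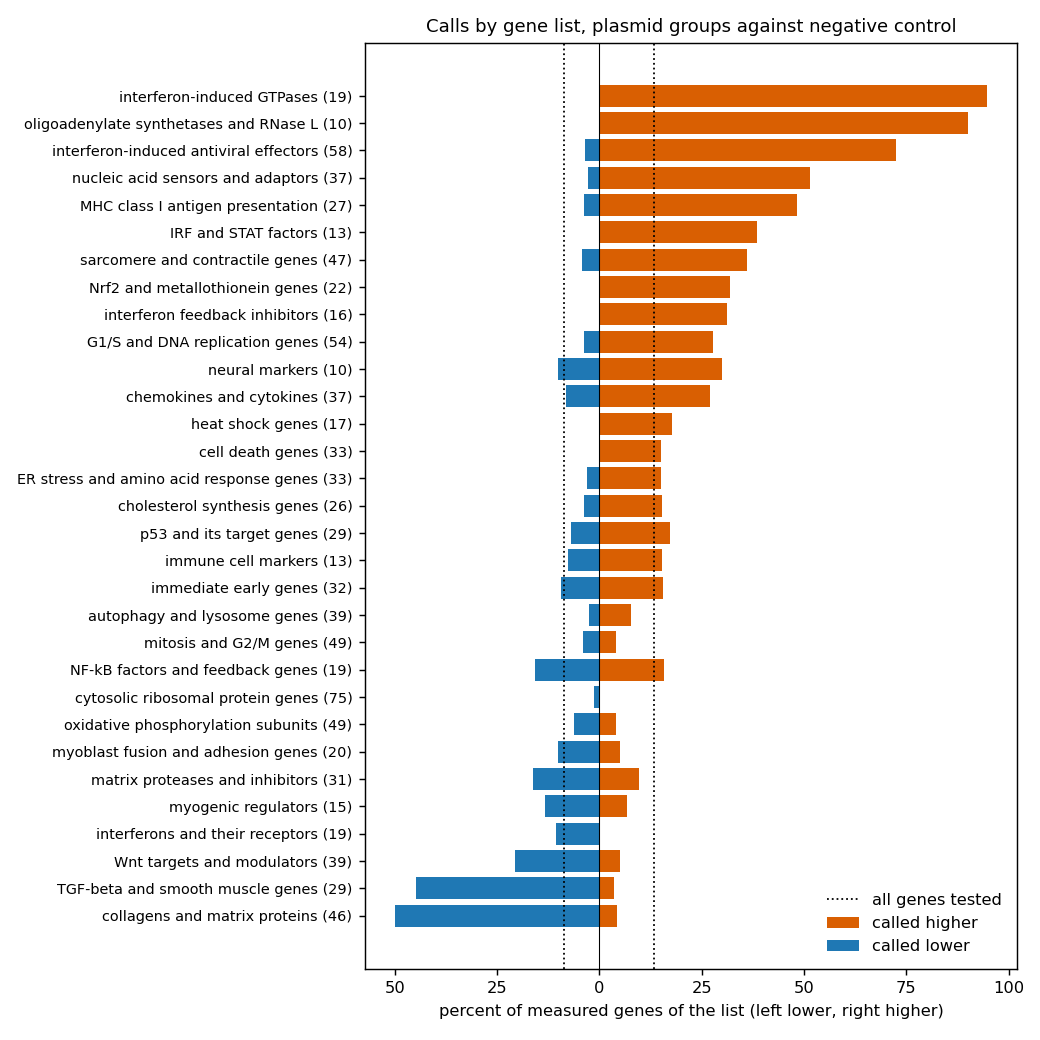
Percent of the measured genes of each list with at least 10 of them that were called higher (to the right) or lower (to the left), with the number measured in brackets and dotted lines at the 13.3% and 8.54% of all genes. The interferon-induced GTPases (18 of 19) and oligoadenylate synthetases (9 of 10) reach furthest to the right, and the collagens and matrix proteins (23 of 46) furthest to the left.

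The plot of calls by list shows on its left side the groups that fell. Genes of the extracellular matrix made up the largest of them: of 46 measured collagens and matrix proteins 23 were called lower and 2 higher, against 8.54% and 13.3% of all genes, and the median was -0.54. Postn, the matrix protein periostin, read 4.89, 4.30 and 4.96 in the negative control, 2.02, 1.92 and 2.00 with pcDNA3.1, and 1.49, 1.51 and 1.52 with pcDNA3.1-MEG3. It was 7.35-fold lower (-2.88, SE 0.21, limma adjusted p = 0.00239), with no overlap of the groups. The short-chain collagen gene Col8a1 read 4.38, 3.59 and 4.40 in the negative control, between 2.02 and 2.09 with pcDNA3.1, and 1.49, 1.12 and 1.47 with pcDNA3.1-MEG3, and fell by 2.31. Col8a2 was called lower at -2.38, though with background correction by normexp without the spots under their local background its value was 0.58, and another probe of the gene read 0.94. Col14a1, a collagen that lies on the surface of fibrils, was called at -1.97, and Col1a1, a chain of the main fibrillar collagen, at -1.50 (SE 0.33, limma adjusted p = 0.0355). For Col1a1 the spots of pcDNA3.1 replicates 1 and 3 were marked as outlying, so replicate 2 alone stood for that group in the fit. The 2 called higher were Vcan (0.95) and Eln (0.89), which encode the proteoglycan versican and elastin, and other probes of Vcan read -0.06 and 0.92. Against siRNA the list had 25 lower and 2 higher, with a median of -0.65. Leaving out 1 plasmid sample gave 11 to 15 matrix genes lower than the negative control, and with each plasmid group as 1 sample 0 were called. Col1a1 lost its call without negative control replicates 1 and 3, without pcDNA3.1 replicates 1 and 3, and without either sample of pcDNA3.1-MEG3. Each fall here and below rests on 1 probe per gene. Over all 312 genes called lower with another probe, at least 1 other probe went the other way for 145 (46.5%), against 23.8% of those called higher.

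Genes of TGF-beta signalling and of smooth muscle contraction fell beside the matrix genes. Of 29 measured 13 were called lower (44.8%) and 1 higher (3.4%), beside 8.54% and 13.3% of all genes, with a median of -0.68. Tagln, an actin-binding protein of smooth muscle, read 4.32, 3.73 and 4.28 in the negative control, 0.92, 0.87 and 0.83 with pcDNA3.1, and 0.61, 0.75 and 0.57 with pcDNA3.1-MEG3. It was 9.44-fold lower (-3.24, SE 0.19, limma adjusted p = 0.000502), and its siRNA arrays, at 4.06, 3.85 and 4.02, overlapped the negative control. Cnn1, the thin-filament protein calponin, fell by 2.41 and Myl9, a myosin light chain, by 1.97. Ccn2, a matricellular protein and standard target of TGF-beta and YAP, read 1.23, 1.01 and 1.24 in the negative control and between -1.04 and -0.89 on the 6 plasmid arrays. It fell by 2.08 (SE 0.12, limma adjusted p = 0.000497), whereas its siRNA arrays were higher than the negative control, at 3.37, 3.34 and 3.35. The member called higher was Grem1 (1.12), a secreted antagonist of bone morphogenetic proteins. Of 31 matrix proteases and their inhibitors 5 were called lower (16.1%) and 3 higher (9.7%), beside 8.54% and 13.3% of all genes. The collagenase gene Mmp13 rose 6.82-fold (2.77, SE 0.15), from -2.75, -2.33 and -2.72 to between 0.14 and 0.38, and Mmp10 (-1.46) and Mmp3 (-1.08) were lower. With 1 plasmid sample left out, 10 to 11 genes of the TGF-beta list and 4 of the protease list were called lower, and 1 of the protease list higher.

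Wnt genes fell in part, with 8 of 39 called lower (20.5%) and 2 higher (5.1%), beside 8.54% and 13.3% of all genes. Their median was -0.17. The list's lower members include feedback inhibitors, which the pathway itself induces. Axin2, a scaffold of the complex that destroys beta-catenin, read -0.06, -0.61 and -0.06 in the negative control, -5.30, -5.15 and -5.28 with pcDNA3.1, and -5.0, -5.47 and -5.11 with pcDNA3.1-MEG3. It was 29.9-fold lower (-4.90, SE 0.21, limma adjusted p = 0.000199), and the siRNA arrays, at -1.96, -1.90 and -1.95, lay between. Nkd2, an inhibitor that binds Dishevelled, read 3.98, 3.37 and 4.02 in the negative control, between 1.36 and 1.42 with pcDNA3.1, and between 0.77 and 0.86 with pcDNA3.1-MEG3, and fell by 2.59. Dkk2, a secreted inhibitor, fell by 2.41 and Ccn5 by 2.19. The receptor Fzd4 (1.18) and the ligand Wnt5b (0.88) were higher. Under median centring, 0 of the list were higher and 16 lower. With 1 plasmid sample left out 5 to 7 were lower and 0 higher, so that Fzd4 and Wnt5b lost their call.

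**Figure D4:**
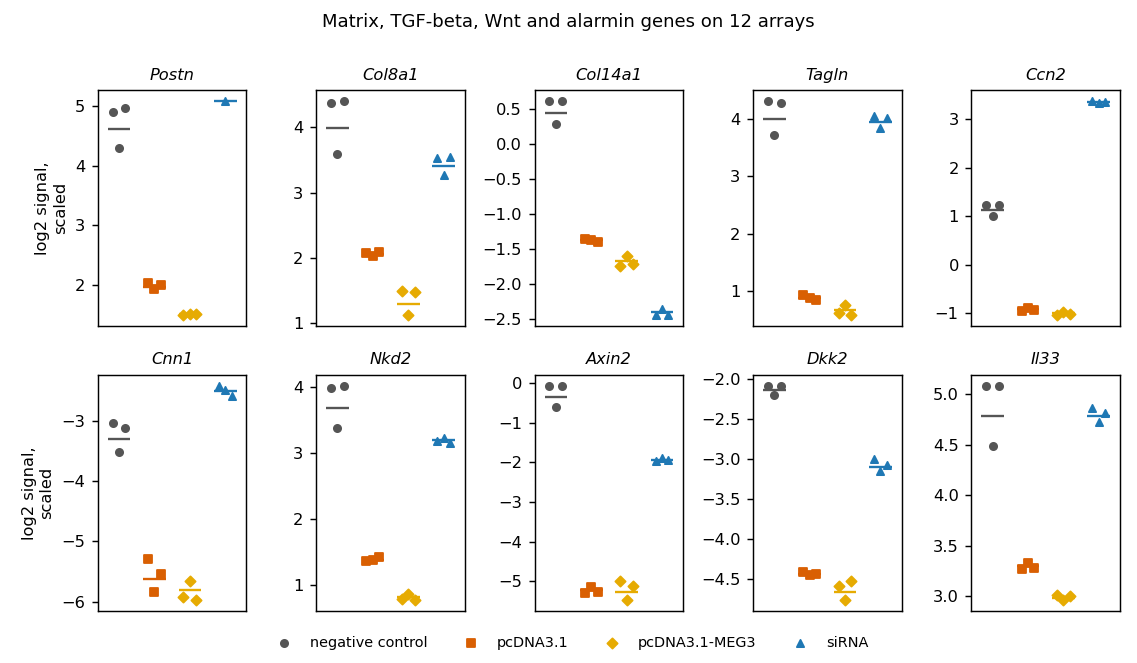
Scaled log2 signal of 10 genes called lower on 12 arrays, 1 point per array with a line at each group's mean, and a vertical scale of its own for each gene. In every panel the 6 plasmid arrays lie below the 3 negative control arrays, and the siRNA arrays of Tagln lie with the negative control while those of Ccn2 lie above it.

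The plot of the lower genes by array also shows Col14a1, for which the siRNA arrays were lower still than the plasmid groups. Among genes with a RefSeq symbol (16792 of 24543 tested), the 10 with the deepest shared decrease belonged to no single list. Predicted genes and genes whose arrays overlapped were left out of this ranking. Atp8b2, a phospholipid flippase, read 0.04, -0.27 and 0.18 in the negative control and between -5.61 and -4.99 on the 6 plasmid arrays, 35.2-fold lower (-5.14, SE 0.22, limma adjusted p = 0.000199). Rap1a, a small GTPase of cell adhesion, read -1.11, -0.81 and -0.95 against -6.22 to -5.69, 31.8-fold lower (-4.99, SE 0.18). Fkbp11, a prolyl isomerase of the secretory pathway, was 51.1-fold lower, though its negative control arrays were themselves spread, at 2.45, 0.46 and 1.91. Ubxn4, Wdr19, Smg8 and Pxdc1 were not well above background on any plasmid array and were at least 36.0-fold, 36.7-fold, 21.8-fold and 22.2-fold lower. Tsc22d2 and Tpst1 were above it on part of the plasmid arrays and at least 34.9-fold and 42.7-fold lower, and Axin2 was the other of the 10. The siRNA arrays of Ubxn4 (-5.26, -5.15 and -5.50), Wdr19 (-4.39, -4.59 and -4.47), Atp8b2 (-3.0, -2.73 and -2.94) and Rap1a (-2.96, -3.31 and -3.02) lay between those of the negative control and the plasmid groups.

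Of 15 measured myogenic regulators 1 was called higher (6.7%) and 2 lower (13.3%), beside 13.3% and 8.54% of all genes. Myf5, a determination factor of the muscle lineage, read -1.49, -2.53 and -1.46 in the negative control, -6.40, -6.53 and -6.31 with pcDNA3.1, and -6.81, -6.75 and -6.90 with pcDNA3.1-MEG3. It was at least 23-fold lower (-4.62, SE 0.29, limma adjusted p = 0.000629), with 3 of 6 plasmid arrays well above background, and the siRNA arrays, between -4.88 and -4.84, lay between. Myod1, the other determination factor, read -3.43, -2.33 and -3.45 in the negative control and between -2.82 and -2.49 on the plasmid arrays, so that the groups overlapped (difference 0.28, limma adjusted p = 0.524). Myog, which drives differentiation, was called at 0.51 and Mef2a, a cofactor, at -1.0. Of 9 measured C2C12 markers all were well above background on at least 2 negative control arrays, and besides Myf5 the integrin gene Itga7 was called lower (-0.53). Myog and Itga7 lost their call when any 1 plasmid sample was left out.

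Of 47 measured genes of the contractile apparatus 17 were called higher (36.2%, beside 13.3% of all genes) and 2 lower, and the others did not pass. Their median was 0.53. Casq2, a calcium store protein, read -5.94, -5.36 and -5.85 in the negative control and between -4.40 and -4.12 on the 6 plasmid arrays (1.36, SE 0.18, limma adjusted p = 0.00681). Acta1, the skeletal alpha-actin, went the other way: it read 2.93, 2.95 and 2.61 in the negative control, -0.20, -0.22 and -0.16 with pcDNA3.1, and 0.32, 0.28 and 0.32 with pcDNA3.1-MEG3. It was 7.02-fold lower (-2.81, SE 0.12, limma adjusted p = 0.000199). Trdn, the calcium-release protein triadin, was also lower (-1.35). The siRNA arrays were the high group for this list: 34 of the 47 were lower in the plasmid groups than with siRNA and 0 higher, with a median of -2.38, and Casq2 read 0.12, 0.22 and 0.04 there. Under median centring the list had 5 higher and 5 lower against the negative control, so its balance of directions depended on the zero point. With 1 plasmid sample left out, 4 to 7 were called higher.

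**Figure D5:**
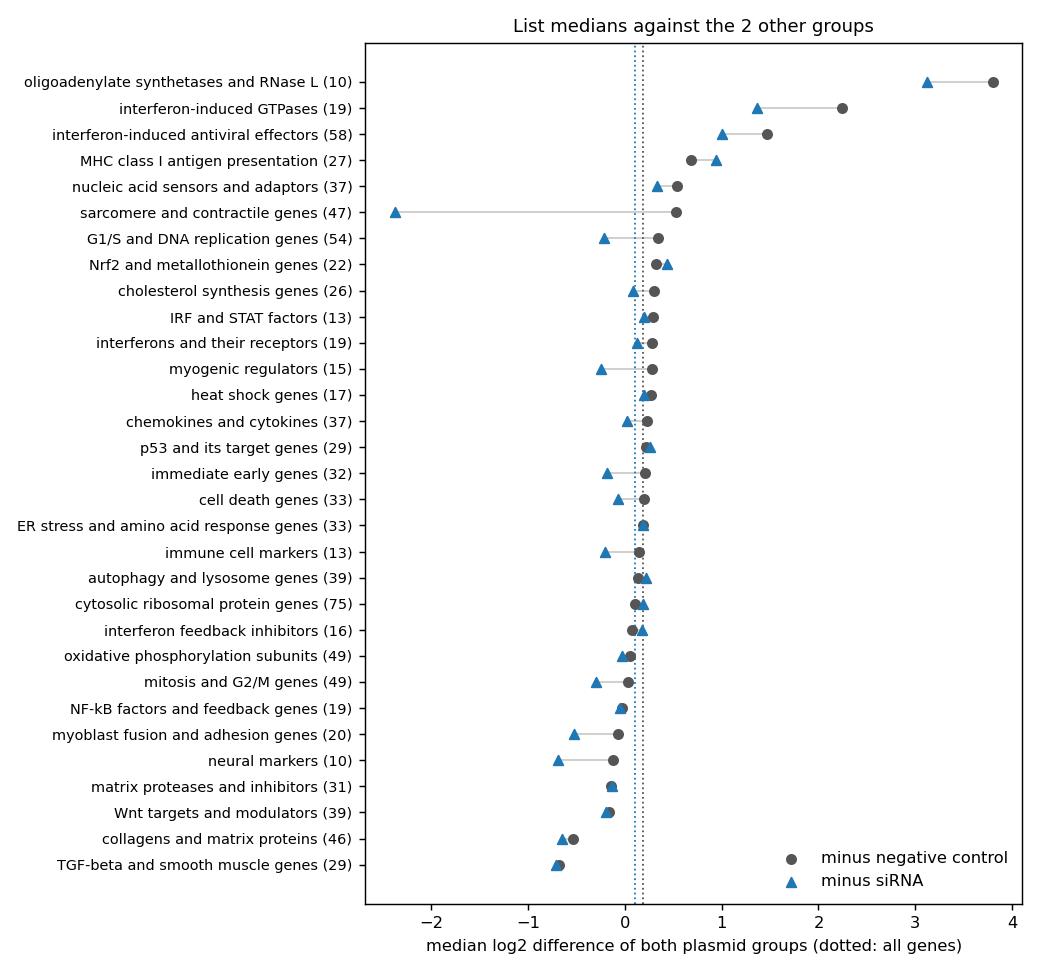
Median log2 difference of both plasmid groups from the negative control (circles) and from siRNA (triangles) for each list with at least 10 measured genes, with dotted lines at the medians over all genes, 0.185 and 0.108. The sarcomere list lies at 0.53 against the negative control and at -2.38 against siRNA, while the oligoadenylate synthetases lie at 3.80 and 3.12.

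The plot of list medians shows the synthetases, effectors and GTPases to the right and the matrix and TGF-beta lists to the left of the all-gene median in both contrasts, which share the plasmid arrays. The feedback inhibitors of interferon signalling lay at 0.07 against the negative control. Of 54 measured G1/S and DNA replication genes 15 were called higher (27.8%, beside 13.3% of all genes) and 2 lower, with a median of 0.35, and under median centring 3 were higher and 7 lower. Tyms, thymidylate synthase, rose by 1.05 and Mcm5, a helicase subunit, by 0.96, while Ccne2, a cyclin, was not well above background on any plasmid array and was at least 4.0-fold lower. Of 49 mitosis genes 2 were higher and 2 lower (4.1% each, beside 13.3% and 8.54% of all genes), with a median of 0.03. The 2 lower ones were Aurkb, at least 15.3-fold lower, and Cdk1, which fell 5.97-fold by its brightest probe (-2.58, SE 0.17) while 2 other probes of the gene read -4.82 and 0.95. Of 29 p53 genes 5 were higher (17.2%) and 2 lower (6.9%), near the 13.3% and 8.54% of all genes. Tigar (1.23), Cdkn1a (0.96) and Pmaip1 (0.93) were among the former, and Rrm2b (-3.13) and Gtse1 (-2.05) were the latter. Another probe read -0.19 for Tigar and -0.51 for Rrm2b. Of 33 cell death genes 5 were higher (15.2%, near the 13.3% of all genes) and 0 lower, among them Casp1, the inflammatory caspase (1.08), and Mlkl, the effector of necroptosis (0.95). These counts rested on single samples: with 1 plasmid sample left out 3 to 4 of the G1/S genes, 0 of the mitosis genes and 0 to 2 of the cell death genes were called higher, and without negative control replicates 1 and 3 the counts were 25, 10 and 12. The p53 list then had 2 to 4 and 12 higher.

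Of 22 genes of the Nrf2 list 7 were higher (31.8%, beside 13.3% of all genes) and 0 lower, with a median of 0.32. Hmox1, heme oxygenase, read -0.06, 1.16 and 0.04 in the negative control, 2.46, 2.53 and 2.46 with pcDNA3.1, and 2.92, 2.84 and 2.88 with pcDNA3.1-MEG3. It rose 4.30-fold (2.1, SE 0.32, limma adjusted p = 0.00989), and negative control replicate 2 lay nearer to the plasmid arrays than the other 2 did. Nqo1, a quinone reductase, was of the same form, at -0.90, 0.19 and -0.93 in the negative control and between 1.13 and 1.29 on the plasmid arrays (1.59). Of 17 heat shock genes 3 were higher (17.6%), led by Hsph1 (1.42), and 0 lower. Of 33 genes of the unfolded protein and amino acid responses 5 were higher (15.2%), with the cystine transporter Slc7a11 at 1.53, and 1, Fkbp11, lower. Of 32 immediate early genes 5 were higher (15.6%), led by Atf3 (2.01), and 3 lower (9.4%), with Zfp36, which destabilises cytokine messages, at -1.45. Of 26 cholesterol genes 4 were higher (15.4%), led by Insig1 (1.85), and 1 lower. In the heat shock, unfolded protein, immediate early and cholesterol lists the share higher was near the 13.3% of all genes. Of 49 subunits of oxidative phosphorylation 2 were higher (4.1%) and 3 lower (6.1%), and of 75 cytosolic ribosomal protein genes 0 and 1 (1.3%). These shares stand beside 13.3% higher and 8.54% lower among all genes, and the medians were 0.05 and 0.10. Leaving out 1 plasmid sample gave 2 to 3 higher in the Nrf2 list and 1 in the heat shock list, and Nqo1 lost its call. The ribosomal list had 6 higher and 21 lower without negative control replicate 2, and 27 higher and 1 lower without replicates 1 and 3. Under the same omissions in turn the cholesterol list had 12 and 12 higher, the unfolded protein list 11 and 14, the heat shock list 5 and 10, the immediate early list 7 and 11, and oxidative phosphorylation 7 and 12 higher and 14 and 4 lower.

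Markers of other cell types were counted in the same fit, where 13.3% of all genes were called higher and 8.54% lower. Of 13 measured immune cell markers S100a8 (2.13) and Cd14 (0.84) were called higher (15.4%) and Itgam (-1.55, other probes -0.10 and 0.74) lower (7.7%). Both shares were near those of all genes. The summed scaled signal of the 13 was 6.55 to 7.52 on the negative control arrays, 6.71 to 7.18 with pcDNA3.1 and 6.60 to 6.78 with pcDNA3.1-MEG3, so that the groups overlapped. Ptprc, the pan-leukocyte marker, which is named after its value was seen, had a difference of 0.64 and did not pass. Itgam lost its call whichever sample of the 3 groups was left out. Of 7 endothelial markers Vwf was called higher (2.47), and their sum was 1.27 to 1.33 in the negative control, 1.70 to 1.91 with pcDNA3.1 and 1.5 to 1.58 with pcDNA3.1-MEG3. The part of these markers in the interferon and cytokine results was not tested. Of 8 fibroblast markers Col1a1 (-1.50), Pdgfrb (-0.95) and Dcn (-0.64) were called lower and Ly6a (1.32) higher, and none of the lower calls held when any 1 plasmid sample was left out. Their sum was 264 to 389 in the negative control, 260 to 296 with pcDNA3.1, where Col1a1 has no value on replicates 1 and 3, and 246 to 254 with pcDNA3.1-MEG3. The part of these markers in the matrix result was not tested. Of 10 neural markers 3 were called higher (30.0%) and Snap25 (-1.15) lower (10.0%), of 8 adipocyte markers 2 higher and 1 lower, and of 3 epithelial markers Krt5 (1.11) higher. In RNA of whole cultures, fewer cells of a type and less RNA per cell cannot be told apart.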

How the data were processed

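RNA of 12 C2C12 samples in 4 groups of 3 arrays was measured on single-colour Agilent arrays, and the labels' transfection field gave the groups. Per the file headers, the deposited spot intensity values came from Agilent Feature Extraction 11.0.1.1. That software removed local background and a spatial trend but set no common scale between arrays. Spot flags of 0 or 1 were deposited with them. The authors' table of processed intensity values for the series was an alternative. Its scaling method was not given in the sources used here, its column medians lay near 277, and its ranks followed the scanner signal.

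Control spots (1377 of 44397) and outlying spots were dropped, no spot being saturated. Spots of a probe were averaged, and each array's 75th percentile was taken from its log2 signals. A probe was kept if all arrays of some group had it well above background (29607 probes), and the brightest probe stood for each gene, giving 24543 genes. Of 39429 probes 27234 matched a RefSeq symbol and the others kept the name in the files. Of 816 called genes with another probe, at least 1 such probe went the other way for 120 of 504 higher genes (23.8%) and 145 of 312 lower genes (46.5%). In 467 genes a sample had no value, and 83 of these were called.

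Replicates 1 and 3 of each group were averaged, and 8 samples in 4 groups entered 1 fit in limma 3.58.1 (R 4.3.3, version 1.17.8 of the data.table package, lmFit and eBayes, two-sided, 4 residual and 1.9 prior degrees of freedom, Benjamini-Hochberg over all genes, threshold 0.05), tested on simulated data. Sequences and figures used Python 3.11.15, pandas 2.3.3 and matplotlib 3.10.9. Same-numbered arrays of different groups did not deviate together (correlations -0.0956 to 0.0495). Named genes were the 10 highest and 10 lowest called genes with a RefSeq symbol whose arrays did not overlap, predicted-gene names left out. They also took in up to 4 called members of each list in each direction. Both were ranked by the smaller plasmid change. All members of the interferon, sensor, IRF and STAT, synthetase, myogenic and C2C12 lists were named genes too. The comparison, lists and tests were chosen with earlier results of these data known. Alternatives changed the samples, scaling, background correction, probe filter and probe summary. Values of 2 list members are not reported here. The number of arrays limits the precision.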

Additional observations from a re-analysis of the deposited data

How the results depend on the processing

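The shared plasmid response held 5351 genes. It held 12860 with 12 arrays as 12 samples, 8356 with the 3 compared groups alone, 2136 with a change of at least 1, 134 with each plasmid group as 1 sample, and 1705 to 9049 when 1 sample was left out. The comparison with siRNA, with 4603 genes, gave 12781, 9427, 2337, 185 and 1652 to 4885 in turn. With 1 sample left, a group is assumed to vary like the others. Background correction by normexp, run on median signals, left 16 genes and 0 genes. Spots with a local background above their signal numbered 7 and 9 on pcDNA3.1 replicates 1 and 3 and 13 on siRNA replicate 2. The excess reached 47549, 56058 and 58409 in turn. On siRNA replicates 1 and 3 there was 1 such spot each, with an excess of 8.5 and 6. Without those spots, a setting added after the data were seen, 4009 and 3868 genes passed.

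The replicate block gave 4064 genes against the negative control and 3387 against siRNA. It is reported here only because replicate numbers are shared, since they did not pair the samples. Quantile normalisation, the series table, the first scans alone, both probe filters and the mean of all probes moved neither count by over 1.5 times, and quantile normalisation and the series table gave 46% of the calls as higher. Of 183 named genes that were called, 31 kept their call with each plasmid group as 1 sample, 138 under median centring and 107 to 173 with 1 sample left out.

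Of 243 named genes 45 changed sign under some alternative, and 35 of them were called neither in the fit reported nor where the sign turned. Among the others, directions reversed for Adipoq (0.54) and H2-T24 (0.21) under normexp on all spots, and when 1 sample was left out for Aim2 (range -0.34 to 0.49), Hmgb1 (-1.20 to 0.77), Tlr7 (-0.53 to 0.39) and Ikbke (-0.48 to 0.68). The first 3 reversed without negative control replicate 2 and Ikbke without replicates 1 and 3. They reversed for Cgas (-0.21), H2-T24 (0.32) and Ifi208 (0.91) with the mean of all probes, for Col8a2 (0.58) under normexp without spots under their background, and for Cox7c (0.22) among probes well above background on all arrays. The cause of these reversals was not tested. Signal over background limits the size of many changes: of the genes called higher, 11.9% were not well above background on any array of the dimmer side and 8.94% on part of them, and of those called lower 8.74% and 7.83%.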
